A study of Mus musculus with 36 samples.

Results

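The comparison described here sets dendritic cells labelled cDC2 that had received lipopolysaccharide (LPS) and PGPC together against cDC2 that had received nothing. It uses 6 of the 36 libraries of the series, 3 for each condition, chosen by their labels for cell type and treatment, and it covers all genes. The cells were mouse bone marrow cells induced with FLT3 ligand, and the labels give no genotype, dose or time. Input was normalised to RNA from a set number of cells, and every value is a bulk level in which fewer cells of a type and less RNA per cell cannot be told apart. Libraries of cDC2 given LPS alone (3) or PGPC alone (2) and of cDC1 (3 untreated and 3 with LPS and PGPC) were used only where named. Replicates are numbered 4 to 6 in cDC2 and 1 to 3 in cDC1. The series calls them biological, but the labels do not say whether they came from separate animals or cultures, so the p-values measure the spread between these libraries.

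LPS, a component of the outer membrane of Gram-negative bacteria, is sensed by TLR4 with CD14 and MD-2. Signalling through MyD88 leads to NF-kB and AP-1, while signalling through TRIF leads to IRF3, type I interferon and interferon-stimulated genes. PGPC is an oxidized phospholipid found in dying cells and damaged tissue. Dendritic cells given LPS and such lipids can release interleukin-1 while staying alive, the state that the title of the series calls hyperactive. The comparison with untreated cells asks which messenger RNAs make up the state of cells given both agents.

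Levels are CPM, counts scaled to a common total, of TMM-scaled library totals, and a value after ± is a standard deviation over 3 libraries for a level and a standard error for a log2 fold change. Adjusted p-values are from edgeR's quasi-likelihood test with Benjamini-Hochberg adjustment over 12463 tested genes, and a gene is said to have risen or fallen only where that value was under 0.05. Untreated replicates 4, 5 and 6 held 3351859, 3887959 and 243861 counts, and the libraries with LPS and PGPC held 8283402, 2959317 and 3982358. The last untreated library was thus the shallowest: 3 counts stand for 11.2 CPM in it, and 3050 tested genes had no count there, against 454 to 693 in the other 5 libraries. The ribosomal RNA locus took 28.6% to 37.3% of counts in untreated cells and 22.4% to 32.9% with LPS and PGPC. Libraries of the same condition correlated at a Spearman's rho of 0.882 to 0.961 across genes and libraries of different conditions at 0.742 to 0.863.

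The label cDC2 was compared with marker genes. Sirpa, a surface receptor of this cell type, was at 1098 ± 228 CPM untreated and 1062 ± 620 CPM with both agents. The 19 genes of the cDC2 list, Sirpa and Csf1r among them, summed to 2503 to 3650 CPM in the untreated libraries. Some others of this list were near 0. The untreated means were 0.175 CPM for Cd209a, 0.265 CPM for Mgl2, 2.29 CPM for Clec10a and 2.61 CPM for Irf4. Defining markers of cDC1 were near 0 too, with Xcr1 at 0.348 CPM and Clec9a at 0.619 CPM in untreated cells. All 18 genes of the monocyte and macrophage list were detected in both conditions, among them Lyz2, Apoe and Csf1r, and their levels summed to 9634 to 10787 CPM in the untreated libraries and to 4065 to 10121 CPM with LPS and PGPC. The libraries are therefore called cDC2 as their label, not as a marker profile. The part of this marker list in the results below was not tested. B cell genes summed to at most 33.7 CPM in any of the 6 libraries and T or NK cell genes to at most 19.9 CPM.

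Interferon, chemokine, costimulation and antigen presentation genes were higher in cells given LPS and PGPC, and fewer genes were lower, among them genes of the cell cycle. Of the genes tested, 676 rose (5.42% of all) and 274 fell (2.2%), 7.62% in all. The 3 libraries with LPS and PGPC lay wholly above the 3 untreated libraries for 2353 genes (18.9%) and wholly below them for 1712 (13.7%). Among called genes this held for 670 of those that rose and 260 of those that fell. The calls were made on the same libraries, so this is no separate support for them. A change of more than 4-fold (2 on the log2 scale) was seen for 484 genes that rose and 156 that fell, while the median over all tested genes was 0.07. Replicate 4 with LPS and PGPC was the highest of its group for 409 of the genes that rose (60.5%, against 43.7% over all tested genes). The count of called genes fell to 544 without untreated replicate 4 and to 597 without untreated replicate 5, and DESeq2 and a fit of the 6 libraries alone gave a lower share of genes that rose among those called (61.1% and 61.2%, against 71.2%).

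**Figure D1:**
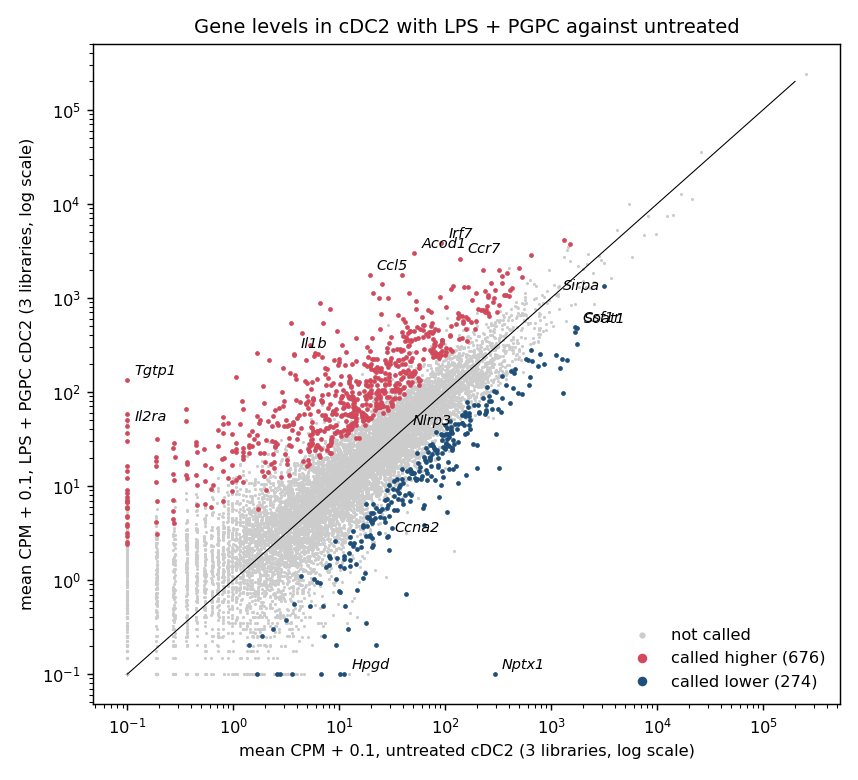
Mean level of each tested gene in untreated cDC2 (x axis) and in cDC2 with LPS and PGPC (y axis), both as CPM plus 0.1 on log scales, 3 libraries each. The 676 genes that rose lie above the diagonal and the 274 that fell below it; points at the left and lower edges are genes without any count in a condition, such as Tgtp1 and Nptx1.

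Of the genes of LPS sensing, most had a log2 fold change above 0, but few passed the test. Tlr4 was at 63.2, 46.2 and 67.4 CPM in untreated replicates 4 to 6 and at 72.1, 56.8 and 39.7 CPM with LPS and PGPC, so the groups overlapped (log2 fold change -0.05 ± 0.56, adjusted p = 0.985). Cd14, the co-receptor that hands LPS and oxidized phospholipids to the cell, was at 204, 217 and 112 CPM untreated and at 977, 378 and 270 CPM with both. All 3 treated libraries were above the untreated ones, but the difference did not pass the test (1.59 ± 0.57, adjusted p = 0.0923). Of 17 tested members 15 had a log2 fold change above 0 (median 1.03). The treated libraries lay wholly above the untreated ones in 6 of the 17, where 18.9% of all genes did so. Of the 17, 1 rose, a share of 5.88% beside 5.42% of all genes. This was Ticam1, which encodes the adaptor TRIF and went from 27.1 ± 7.96 to 119 ± 52.8 CPM (2.06 ± 0.46, adjusted p = 0.00478). The adaptor Myd88 was at 28.8 ± 6.44 and 59.8 ± 7.83 CPM (adjusted p = 0.0895).

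Among NF-kB subunits and the feedback genes that NF-kB induces, 12 of 21 tested members rose and 0 fell, and the median of the list was 1.79. The 9 that did not pass the test included the subunits Nfkb1 and Nfkb2 and the feedback gene Tnfaip3. Traf1, a signalling adaptor of TNF receptors, was at 34.0, 47.0 and 26.2 CPM untreated and at 1169, 435 and 366 CPM with both agents (4.15 ± 0.58, adjusted p = 5.2e-05). Relb, a subunit of the noncanonical pathway, went from 70.3 ± 9.70 to 439 ± 113 CPM (2.62 ± 0.48, adjusted p = 0.000814), and Rel, a subunit prominent in dendritic cells, from 143 ± 24.8 to 634 ± 136 CPM (2.16 ± 0.40, adjusted p = 0.000903). The inhibitor Nfkbia went from 61.0 ± 25.5 to 388 ± 159 CPM (2.61 ± 0.45, adjusted p = 0.000483). In each of these 4 genes the treated libraries lay above all untreated ones. Without untreated replicate 4, and also without untreated replicate 6, 7 members were called.

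AP-1 and immediate early genes split by member, with 8 of 22 higher and 2 lower (median 1.36). Batf, an AP-1 partner of IRF4 and IRF8, was at 2.41, 1.81 and 0 CPM untreated and at 56.6, 29.6 and 28.7 CPM with LPS and PGPC (4.29 ± 0.61, adjusted p = 6.76e-05). Dusp1, a phosphatase that switches off MAP kinases, rose from 382 ± 167 to 1825 ± 245 CPM (2.24 ± 0.46, adjusted p = 0.00245), and the zinc finger factor Klf6 from 73.0 ± 24.7 to 500.4 ± 109 CPM (2.73 ± 0.39, adjusted p = 6.76e-05). The members that fell were Fos and Egr1, both quickly induced and short-lived transcription factors, named here after their values were seen. Fos went from 260 ± 33.9 to 90.1 ± 11.8 CPM (adjusted p = 0.0345) and Egr1 from 133 ± 16.5 to 29.5 ± 17.7 CPM (adjusted p = 0.042). Leaving out any of the 6 libraries ended the call for Fos, and leaving out any other than replicate 6 with LPS and PGPC ended that for Egr1. Without untreated replicate 4, 5 members were called higher, and without replicate 6 with LPS and PGPC the median was 2.01.

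Interleukin-1 genes were among the most changed cytokines. Il1b (chromosome 2, 129364570 to 129371139 on GRCm38), which encodes the precursor that inflammasomes process, was at 2.14, 4.91 and 3.74 CPM untreated and at 193, 287 and 282 CPM with LPS and PGPC (6.15 ± 0.88, adjusted p = 7.51e-05). Il1a had 3 counts in untreated cells, all in replicate 5, and was at 70.9, 75.8 and 49.5 CPM in treated ones. The ratio of its CPM was 172, with an exact 95% interval of 58.6 to 835 that covers counting error only. The receptor antagonist Il1rn, which opposes both, was at 6.70, 8.78 and 3.74 CPM untreated and at 1470, 708 and 454 CPM with both agents (6.92 ± 1.06, adjusted p = 0.000154). Without untreated replicate 4 the ratio for Il1a was 90.3, and without replicate 5, which held its counts, Il1a was at least 87.3-fold higher. In all 3 genes the treated libraries stood far above the untreated ones.

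Other cytokines rose from a low base. Il6, a driver of the acute phase response, was at 11.0, 25 and 24.4 CPM in treated libraries and had 1 count in untreated ones, a ratio of 144 (counting interval 25.6 to 5700). The ratio was 75.7 without untreated replicate 4, and without replicate 5, which held the count, Il6 was at least 24.4-fold higher. Il12b, the shared p40 chain of interleukins 12 and 23, was at 0.268, 0.775 and 0 CPM untreated and at 12.8, 15.9 and 10.5 CPM treated (4.64 ± 1.00, adjusted p = 0.00359), a call that ended without untreated replicate 4. Tnf was at 12.6, 24.3 and 7.48 CPM and then at 92.6, 51.9 and 51.1 CPM (1.99 ± 0.50, adjusted p = 0.0113), and this call ended without untreated replicate 4, untreated replicate 6 or replicate 4 with LPS and PGPC. The partner chains of p40 were hardly present: Il12a had counts in 1 treated library (0.595 CPM), and Il23a did not pass the filter on low counts. Il10, an anti-inflammatory cytokine, stayed at 0.529 ± 0.536 and 0.601 ± 0.388 CPM. In all, 8 of 18 tested cytokines were higher and 0 lower, and the median was 2.79, or 2.65 with genes absent from a group at their bound. The count of cytokines was 4 without untreated replicate 4, and the median was 2.15 without replicate 4 with LPS and PGPC.

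**Figure D2:**
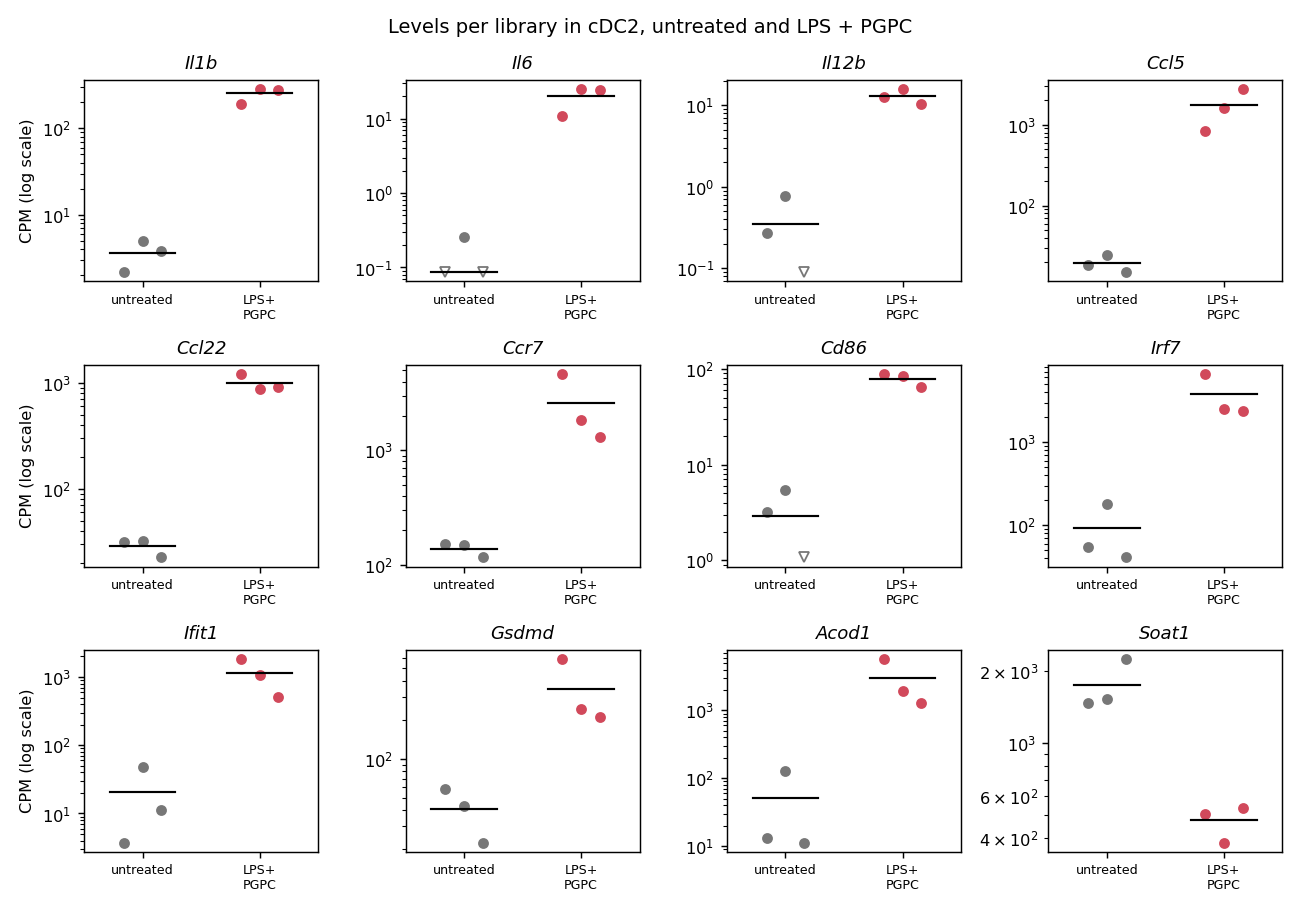
Level of 12 genes in each library as CPM on a log scale, untreated cDC2 in grey and LPS with PGPC in red; each filled point is a library, an open triangle at the lower edge a library without a count, and a line the group mean. Treated libraries lie above all untreated ones in every panel except Soat1, where they lie below.

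Chemokines were higher as well, with 10 of 18 tested members higher, 0 lower and a median of 3.92 (3.83 with absent genes at their bound). Ccl5, which attracts T cells and NK cells (chromosome 11, 83525778 to 83530518), was at 18.2, 24.5 and 15 CPM untreated and at 838, 1586 and 2767 CPM with LPS and PGPC (6.43 ± 0.52, adjusted p = 4.67e-08). Ccl22, a ligand of CCR4 on regulatory T cells, was at 31.1, 32.3 and 22.5 CPM and then at 1216, 886 and 912 CPM (5.08 ± 0.55, adjusted p = 5.53e-06). For both genes every treated library stood far above the untreated ones. Cxcl16 rose from 150 ± 40.4 to 1301 ± 438 CPM (3.10 ± 0.43, adjusted p = 5.08e-05). Among ligands of CXCR3, Cxcl10 was at 1.88, 15 and 0 CPM and then at 306, 220 and 188 CPM (5.01 ± 0.79, adjusted p = 0.000272), and Cxcl11, without a count in untreated libraries, was at least 21.2-fold higher, a call that ended without untreated replicate 4 or 5, where the bound was 11.1-fold and 10.7-fold. That bound and the others below set an absent gene at 3 counts over the group. Ccl17, the other ligand of CCR4, was at 0.149, 0.305 and 0.912 CPM in treated cells. The count of chemokines was 5 without untreated replicate 4.

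Nearly all interferon-stimulated genes were higher. Of 38 tested members 35 rose and 0 fell (median 3.52), and of 14 interferon-induced GTPases, which attack the vacuoles of intracellular microbes, 13 rose and 0 fell (median 4.34). A fit of all 36 libraries called 3 of the 38 and 6 of the 14, with medians of 3.72 and 4.45. Irf7, the factor that amplifies type I interferon (chromosome 7, 141262706 to 141266481), was at 55.5, 179 and 41.2 CPM untreated and at 6601, 2524 and 2340 CPM with LPS and PGPC (5.32 ± 0.67, adjusted p = 2.61e-05). Ifit2, an RNA-binding antiviral protein, was at 13.4, 99.4 and 3.74 CPM and then at 2219, 1692 and 1378 CPM (5.35 ± 0.69, adjusted p = 2.74e-05). Untreated replicate 5 was the highest untreated library for 38 of the 38 genes, against 36.9% of all tested genes. Without it the medians of the 2 lists were 4.70 and 5.89. Samhd1, which depletes nucleotides that viruses need, rose from 69.0 ± 23.3 to 750.3 ± 130 CPM (3.40 ± 0.36, adjusted p = 5.39e-06). Ifnb1, the interferon gene that LPS induces early, had counts in 1 treated library only (0.228 CPM) and was not tested.

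The guanylate-binding protein Gbp2, which binds LPS-containing membranes, was at 9.64, 38.2 and 22.5 CPM untreated and at 1212, 998 and 767 CPM treated (5.39 ± 0.66, adjusted p = 2.14e-05). Tgtp1 had no count in untreated libraries and 285, 81.9 and 35.1 CPM in treated ones, at least 427-fold higher. Replicate 4 was the highest of these, and without it the bound was 145-fold; without untreated replicate 4 or 5 it was 224-fold and 217-fold. Its neighbour Tgtp2 was at 2.41, 22 and 0 CPM and then at 1542, 509 and 260 CPM (6.21 ± 0.84, adjusted p = 5.08e-05). Tgtp1 and Tgtp2 are near-identical copies on chromosome 11, so the division of reads between them is uncertain. Of the regulators above these genes, 11 of 19 tested IRF, STAT and SOCS genes rose and 0 fell (median 2.00). The feedback inhibitor Socs1 rose from 10.1 ± 1.06 to 120 ± 11.3 CPM (3.61 ± 0.65, adjusted p = 0.000692). Without replicate 4 with LPS and PGPC, 7 regulators were called and the median was 1.41.

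Promoters of these genes often carried the letters of the interferon-stimulated response element, searched as 2 copies of GAAA with any 2 bases between them, on both strands, in the 250 bases before each RefSeq start (GRCm38.p6). The letters were in 2.95% of promoters of tested genes, 9.9% of those of genes that rose and 1.39% of those of genes that fell. They were in 12 of 32 promoters of called interferon-stimulated genes (37.5%) and in 9 of 10 of called GTPases (90%). RefSeq promoters were matched for 521 of the 676 genes that rose and 218 of the 274 that fell. The looser letters of a kappa B site, GGG and CC with any 5 bases between them, did not differ in this way, being in 61% of promoters of tested genes and in 61.2% of those of genes that rose. The letters of an AP-1 site, TGA and TCA around any base, were in 4.64% of promoters of tested genes. They were in 9.01% of those of genes that rose and 6.27% of those of genes that fell. A match is a description of the sequence and no evidence that a factor bound there. The promoters of 2 antiviral genes and 1 GTPase of this program show the arrangement, with the matched letters in capitals (read here as TTTC copies, since the printed strand is that of the gene). These promoters were picked by level with both agents among called members that held a match, so they do not stand for their lists. Ifit1 was at 3.75, 47.8 and 11.2 CPM untreated and at 1825, 1061 and 510 CPM treated (5.63 ± 1.01, adjusted p = 0.000737), and Ifit3 rose from 45.6 ± 48.9 to 1123 ± 464 CPM (4.53 ± 0.98, adjusted p = 0.00397). Ifit1 and Ifit3 were named after their values were seen. Their promoters each hold 2 matches and that of Gbp2 holds 1.
Ifit1, chr19:34640639-34640888, plus strand: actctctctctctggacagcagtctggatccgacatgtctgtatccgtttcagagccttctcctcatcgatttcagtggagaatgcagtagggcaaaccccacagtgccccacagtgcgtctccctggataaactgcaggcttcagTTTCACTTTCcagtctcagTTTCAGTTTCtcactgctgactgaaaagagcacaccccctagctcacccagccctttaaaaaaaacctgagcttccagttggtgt
Ifit3, chr19:34583279-34583528, plus strand: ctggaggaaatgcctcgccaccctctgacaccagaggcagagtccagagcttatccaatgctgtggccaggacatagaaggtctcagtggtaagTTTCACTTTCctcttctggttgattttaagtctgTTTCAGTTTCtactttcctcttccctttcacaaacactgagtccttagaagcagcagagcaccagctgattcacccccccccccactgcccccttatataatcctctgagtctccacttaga
Gbp2, chr3:142620413-142620662, plus strand: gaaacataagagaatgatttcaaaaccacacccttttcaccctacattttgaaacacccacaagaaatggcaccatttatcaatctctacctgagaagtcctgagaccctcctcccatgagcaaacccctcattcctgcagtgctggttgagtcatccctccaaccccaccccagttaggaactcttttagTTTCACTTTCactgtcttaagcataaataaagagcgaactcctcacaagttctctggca

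Among inflammasome and pyroptosis genes Casp1, Casp4 and Gsdmd were higher, while Nlrp3 and Pycard did not pass the test. Of 23 tested members 8 rose and 0 fell (median 1.38), and without untreated replicate 4, 5 were called. Gsdmd, whose cleaved product forms the pore through which interleukin-1 leaves the cell (chromosome 15, 75862327 to 75867408), was at 57.9, 43.1 and 22.5 CPM untreated and at 588, 242 and 210 CPM with LPS and PGPC (3.00 ± 0.52, adjusted p = 0.000456). Casp4, which senses LPS in the cytosol, was at 3.48, 4.13 and 0 CPM and then at 30, 48.9 and 54.0 CPM (3.70 ± 0.74, adjusted p = 0.00185). Casp1, the protease that matures interleukin-1, rose from 5.18 ± 1.49 to 34.6 ± 7.76 CPM (2.62 ± 0.64, adjusted p = 0.0102), but not without untreated replicate 4. The sensor Nlrp3 (chromosome 11, 59541568 to 59566956) was at 49.6, 50.9 and 26.2 CPM untreated and at 56.5, 25.4 and 35.3 CPM treated, which overlap (-0.17 ± 0.52, adjusted p = 0.912). The adaptor Pycard was at 40.3 ± 11.3 and 37.7 ± 17.8 CPM (-0.06 ± 0.40, adjusted p = 0.971), and Ninj1, which ruptures the membrane at the end of pyroptosis, at 139 ± 43.9 and 130.4 ± 47.3 CPM (adjusted p = 0.936). Mlkl, the executioner of necroptosis, rose from 9.25 ± 2.15 to 66.1 ± 14.6 CPM (2.92 ± 0.45, adjusted p = 0.000147).

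Genes of dendritic cell maturation rose as well, with 13 of 26 tested costimulation and migration genes higher and 0 lower (median 2.10). Cd86, a ligand of CD28 on T cells, was at 3.21, 5.42 and 0 CPM untreated and at 88.6, 84.9 and 64.3 CPM with LPS and PGPC (4.33 ± 0.56, adjusted p = 3.26e-05). Cd40, which receives help from CD4 T cells, was at 1.34, 11.4 and 3.74 CPM and then at 182, 106 and 94.1 CPM (4.39 ± 0.63, adjusted p = 7.36e-05). Ccr7, the chemokine receptor that guides dendritic cells to lymph nodes (chromosome 11, 99144196 to 99155077), was at 151, 149 and 116 CPM and then at 4649, 1835 and 1319 CPM (4.22 ± 0.60, adjusted p = 6.76e-05). The actin bundler Fscn1, which shapes dendrites, rose from 341 ± 52.7 to 1705 ± 689 CPM (2.33 ± 0.44, adjusted p = 0.00106). Ccr2, a receptor for entry into inflamed tissue, was at 54.1 ± 11.7 and 17.6 ± 6.20 CPM (adjusted p = 0.0789).

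Inhibitory and regulatory genes moved the same way as the activating ones: 7 of 16 rose and 0 fell (median 2.57, or 3.32 without untreated replicate 5). Cd274, which encodes PD-L1, rose from 62.6 ± 35.6 to 518 ± 49.0 CPM (3.01 ± 0.48, adjusted p = 0.000201). Il4i1, a secreted amino acid oxidase, was at 66.7, 66.1 and 26.2 CPM untreated and at 1581, 651 and 551 CPM treated (4.06 ± 0.61, adjusted p = 0.000121). Il2ra, the alpha chain of the interleukin-2 receptor, had no count in untreated libraries and 34.9, 29.9 and 64.0 CPM in treated ones, at least 112-fold higher (58.9-fold and 56.9-fold without untreated replicate 4 or 5).

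Antigen presentation rose through both classes of MHC. For class I, 18 of 23 tested genes were higher and 0 lower (median 2.41). H2-K1, a classical heavy chain, was at 306, 296 and 206 CPM untreated and at 1039, 1554 and 1733 CPM treated (2.41 ± 0.37, adjusted p = 0.00016). Tapbp, which loads peptide onto class I, rose from 177 ± 47.1 to 954 ± 209 CPM (2.41 ± 0.36, adjusted p = 0.000109). Tap1, a peptide transporter, went from 74.5 ± 24.7 to 422 ± 145 CPM, and Psmb8, an immunoproteasome subunit, from 76.3 ± 17.5 to 432 ± 204 CPM (adjusted p = 0.000855 and 0.000635; these 2 were named after their values were seen). The chaperones Calr, Canx and Pdia3, which also serve other glycoproteins, were among the 5 tested genes that did not pass the test, with log2 fold changes of 0.12, 0.06 and 0.11. Values of the close relatives H2-Q6 and H2-Q7 are uncertain between copies.

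For class II, 8 of 15 genes were higher and 0 lower (median 1.32). H2-Eb1 was at 265, 219 and 191 CPM untreated and at 3778, 1193 and 935 CPM treated (3.12 ± 0.57, adjusted p = 0.000796). H2-Ab1 was at 694, 554 and 677 CPM and then at 5288, 1892 and 1432 CPM (2.16 ± 0.49, adjusted p = 0.00572), and its call ended without replicate 4 with LPS and PGPC, the highest of the 3. The master regulator Ciita rose from 23.9 ± 21.3 to 166 ± 87.0 CPM (2.58 ± 0.58, adjusted p = 0.00472). Receptors for antigen uptake did not follow: 2 of 29 rose and 0 fell, with a median of -0.19. The share that rose, 6.9%, was near the 5.42% of all genes. Fcgr1, the high-affinity receptor for antibody, rose from 12.9 ± 1.63 to 196 ± 39.8 CPM (3.88 ± 0.61, adjusted p = 0.000172), and so did the scavenger receptor Marco from 0.434 ± 0.536 to 24.3 ± 26.6 CPM (5.25 ± 1.18, adjusted p = 0.00717), though not without untreated replicate 4. Cd36, a scavenger receptor for oxidized lipids, was at 366, 316 and 382 CPM untreated and at 141, 269 and 232 CPM treated, which did not pass the test (-0.73 ± 0.49, adjusted p = 0.448).

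Part of the genes of cholesterol synthesis was higher. Of 28 tested genes in the cholesterol synthesis list, 11 rose and 0 fell (median 1.38). This list also holds genes of control and of fatty acid synthesis, and those of fatty acid synthesis were not called. Idi1, which makes the isoprene unit, was at 19.8, 17.8 and 26.2 CPM untreated and at 325, 192 and 154 CPM with LPS and PGPC (3.46 ± 0.57, adjusted p = 0.000253). Hmgcs1, an early enzyme of the pathway, rose from 62.3 ± 10.1 to 288 ± 159 CPM (2.19 ± 0.48, adjusted p = 0.00374), and Fdps, which builds farnesyl diphosphate, from 16.3 ± 4.45 to 72.4 ± 29.2 CPM (2.06 ± 0.41, adjusted p = 0.00172). Srebf2, which encodes the factor that drives the pathway, was at 212 ± 33.8 and 267 ± 74.7 CPM (adjusted p = 0.679). Without untreated replicate 4, 5 members were called, and without untreated replicate 5 or replicate 4 or 5 with LPS and PGPC, 7.

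Among 25 tested genes of LXR, PPAR and lipid handling, 3 rose and 5 fell (median -0.45). Soat1, which esterifies cholesterol for storage, was at 1478, 1536 and 2249 CPM untreated and at 507, 383 and 532 CPM treated (-1.89 ± 0.45, adjusted p = 0.00758). The cholesterol exporter Abca1, named after its values were seen, was at 170, 199 and 176 CPM and then at 46.4, 16.2 and 21.7 CPM (-2.68 ± 0.71, adjusted p = 0.0185). Npc1 and Npc2, which pass cholesterol out of the lysosome in turn, moved in opposite directions. Npc1 fell from 269 ± 17.6 to 79.5 ± 13.6 CPM (-1.76 ± 0.39, adjusted p = 0.00489) and Npc2 rose from 245 ± 47.6 to 745 ± 116 CPM (1.60 ± 0.36, adjusted p = 0.0047). Nr1h3, the gene of LXR alpha, rose from 38.4 ± 12.1 to 272 ± 224 CPM (2.77 ± 0.57, adjusted p = 0.00234). Without replicate 5 with LPS and PGPC, 2 members were called lower, and the calls for Soat1 and Abca1 ended; that for Abca1 also ended without replicate 6 with LPS and PGPC and without untreated replicate 5.

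Enzymes of prostaglandin metabolism moved in both directions, with 3 of 19 eicosanoid and oxidized lipid genes higher and 3 lower (median 0.20). Hpgd, which inactivates prostaglandins, was at 12.6, 5.68 and 15 CPM untreated and had no count in any library with LPS and PGPC, at least 44.5-fold lower (23.7-fold without replicate 4 with LPS and PGPC). Ptges, which makes prostaglandin E2, was at 0.804, 7.75 and 0 CPM and then at 92.2, 59.9 and 61.5 CPM (4.19 ± 0.76, adjusted p = 0.000724). The constitutive cyclooxygenase Ptgs1 fell from 16.1 ± 5.99 to 2.51 ± 0.726 CPM (-2.72 ± 0.66, adjusted p = 0.00984), a call that ended without untreated replicate 4. The inducible Ptgs2 rose from 15.3 ± 7.5 to 97.2 ± 32.5 CPM (2.83 ± 0.79, adjusted p = 0.026), a call that ended without untreated replicate 4 or 5 and without replicate 5 or 6 with LPS and PGPC. Hpgds, named after its values were seen, makes prostaglandin D2 and fell from 35.6 ± 14.6 to 7.12 ± 2.04 CPM (-2.23 ± 0.64, adjusted p = 0.0296); its call ended without untreated replicate 5 or 6 or any library with LPS and PGPC.

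Metabolic genes changed at a few points. Acod1, which makes itaconate (chromosome 14, 103046977 to 103056573), was at 13.1, 128 and 11.2 CPM untreated and at 5700, 1926 and 1267 CPM treated (5.76 ± 0.95, adjusted p = 0.000328). With 5 other genes of itaconate, nitric oxide, arginine and tryptophan it made up 6 risers of 11 (0 fell, median 2.90), and without untreated replicate 4, 3 were called. The median was 5.39 without untreated replicate 5 and 2.16 without replicate 5 with LPS and PGPC. Of 25 genes of glycolysis and hypoxia 4 rose and 0 fell (median 0.26). Pfkfb3, a regulator of glycolytic flux, rose from 72.6 ± 27.3 to 699 ± 226 CPM (3.22 ± 0.48, adjusted p = 0.000113), whereas the abundant enzymes Pkm and Eno1 had log2 fold changes of -0.03 and -0.71 that did not pass the test. Without untreated replicate 4 or 5, or replicate 4 with LPS and PGPC, 2 glycolysis genes were called. None of 35 tested subunits of mitochondrial complex I was called (0 higher, 0 lower, median -0.14).

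Part of the stress genes was higher. Of 27 tested genes of the integrated stress and unfolded protein response 8 rose and 0 fell (median 0.82). Ddit3, which encodes CHOP, was at 4.02, 2.07 and 3.74 CPM untreated and at 48.6, 43.1 and 42.4 CPM treated (3.84 ± 0.75, adjusted p = 0.00145). Trib3, a pseudokinase downstream of CHOP, went from 2.47 ± 2.41 to 46.1 ± 17.8 CPM (3.79 ± 0.67, adjusted p = 0.000557), and Asns, asparagine synthetase, from 24.0 ± 11.1 to 91.2 ± 17.7 CPM (1.80 ± 0.39, adjusted p = 0.00345). The chaperones Hspa5 and Hsp90b1 of the endoplasmic reticulum had log2 fold changes of 0.61 and -0.29 (adjusted p = 0.321 and 0.704). Of 13 heat shock genes 1 rose (7.69%, median 0.72) and of 22 NRF2 targets 1 (4.55%, median 0.17), shares near the 5.42% of all genes. The heat shock call ended without any library other than replicate 4 with LPS and PGPC, and the NRF2 call without untreated replicate 4 or 6 or replicate 4 or 5 with LPS and PGPC. Hmox1, heme oxygenase, was at 729, 699 and 475 CPM and then at 2244, 1172 and 1229 CPM, which did not overlap but missed the threshold (1.28 ± 0.42, adjusted p = 0.0618). Of 20 BCL2 family and survival genes 7 rose and 0 fell (median 1.64), among them the caspase-8 inhibitor Cflar, from 22.8 ± 10.4 to 222 ± 155 CPM (3.16 ± 0.53, adjusted p = 0.000328), and the death-promoting Pmaip1, from 21 ± 6.32 to 172 ± 44.3 CPM (3.11 ± 0.53, adjusted p = 0.000453).

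Among the lists, proliferation held the largest number of genes that fell, 7 of 35 tested members, with 1 higher (median -1.26). The share that fell was 20%, beside 2.2% of all tested genes. It was also 20% in the list of LXR, PPAR and lipid handling and in the smaller Notch list. Ccna2, cyclin A2, was at 27.3, 27.1 and 29.9 CPM untreated and at 2.68, 3.97 and 1.60 CPM with LPS and PGPC (-3.35 ± 0.63, adjusted p = 0.00097). Mki67, a marker of cycling cells, was at 26.5, 25.8 and 18.7 CPM and then at 4.31, 3.97 and 0.912 CPM (-2.98 ± 0.61, adjusted p = 0.00237). Rrm2, which supplies nucleotides for DNA synthesis, fell from 29.0 ± 1.88 to 6.13 ± 2.2 CPM (-2.22 ± 0.41, adjusted p = 0.000841). The member that rose was the cell cycle inhibitor Cdkn1a, from 148 ± 14.3 to 563 ± 324 CPM (1.93 ± 0.51, adjusted p = 0.0166), a call that ended without any of the untreated libraries or replicate 6 with LPS and PGPC. Without untreated replicate 4, 3 members were called lower, and without untreated replicate 5, 4.

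Of 35 lysosomal genes 3 were higher and 5 lower (median 0.01). The share higher, 8.57%, was near the 5.42% of all tested genes, and the share lower was 14.3%, beside 2.2% of all. Gusb, a glycosidase, was at 360, 376 and 292 CPM untreated and at 87.6, 70.9 and 103 CPM treated (-1.98 ± 0.33, adjusted p = 0.000364). Ctsc, a protease that activates other proteases, rose from 79.7 ± 23.1 to 339 ± 22.3 CPM (2.06 ± 0.32, adjusted p = 0.000164). Both counts depend on single libraries: without untreated replicate 4, 5 or 6, or replicate 5 or 6 with LPS and PGPC, 1 member was called higher and 2 lower. Of 10 tested Notch genes 2 fell and 1 rose. Notch1 fell from 209 ± 31.2 to 59.9 ± 8.28 CPM (-1.80 ± 0.44, adjusted p = 0.00929), and the ligand Dll4 rose from 1.30 ± 1.80 to 34.6 ± 10.1 CPM (4.23 ± 1.00, adjusted p = 0.00833), though not without untreated replicate 4.

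**Figure D3:**
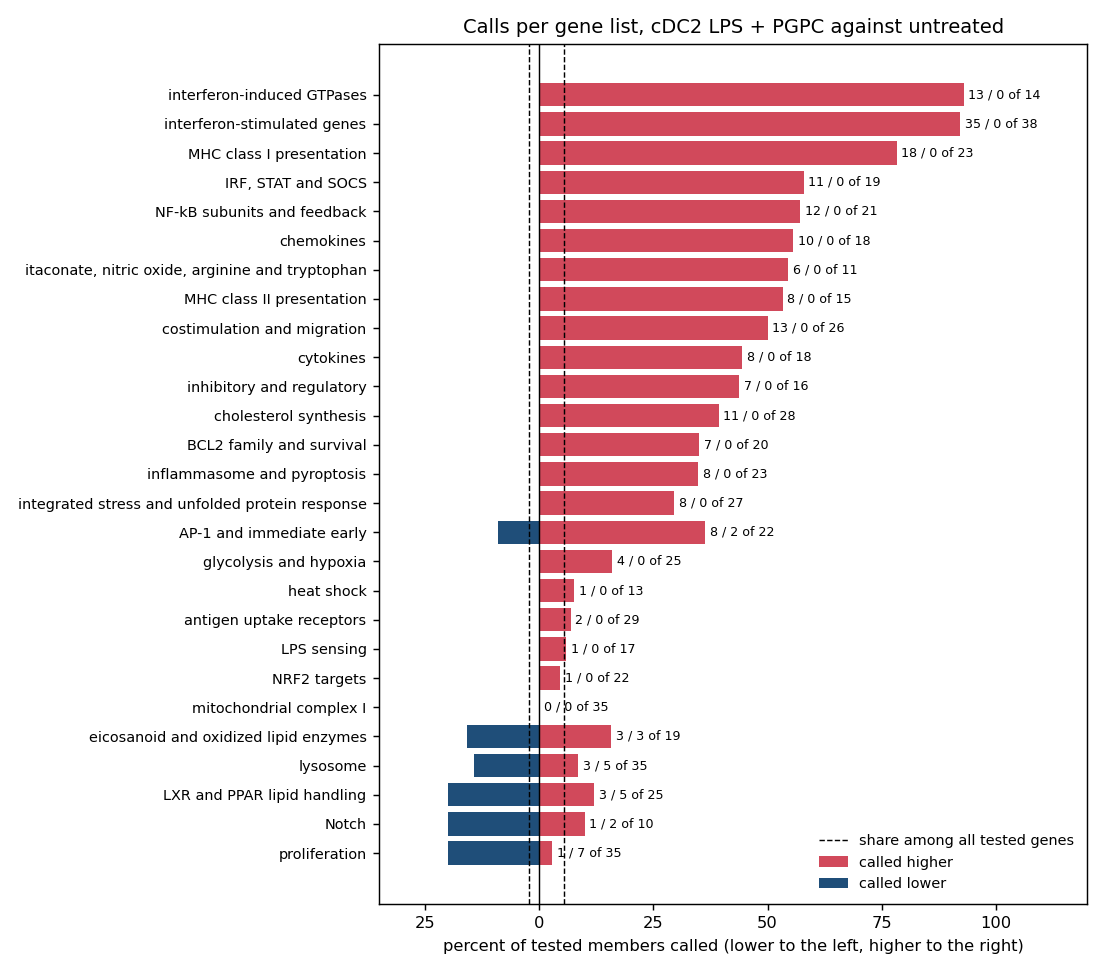
Share of the tested members of each of 27 gene lists that were called higher (red, to the right) or lower (blue, to the left), in percent, with the counts printed as higher / lower of tested. Dashed lines mark the shares among all tested genes, 5.42% higher and 2.2% lower; interferon genes and MHC class I lie farthest to the right.

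Some genes had counts in only 1 of the conditions. No count was found in untreated libraries for 26 genes that rose, nor in treated libraries for 8 that fell. Such genes passed the filter on low counts only through other groups of the fit, so these numbers only describe the called genes. A lack of counts does not show absence, since 3 counts stand for 11.2 CPM in untreated replicate 6. Slc6a4, the serotonin transporter, reached 57.4, 39.7 and 54.5 CPM with LPS and PGPC, at least 138-fold higher, and Slfn4, an interferon-inducible gene of myeloid cells, reached 79.2, 61.1 and 34.9 CPM, at least 162-fold higher. Tex14, known from germ cell bridges, was at 46.2, 20.5 and 23 CPM, at least 87.4-fold higher. With untreated replicate 5 left out, the bounds for Slc6a4, Slfn4 and Tex14 were 70-fold, 82.1-fold and 44.4-fold, and without untreated replicate 4 they were 72.4-fold, 85-fold and 45.9-fold. That for Tex14 was 57.5-fold without replicate 4 with LPS and PGPC. In the other direction Nptx1, a neuronal pentraxin (chromosome 11, 119538719 to 119547753), was at 264, 308 and 307 CPM in untreated cells and had no count in treated ones, at least 1380-fold lower (734-fold without replicate 4 with LPS and PGPC). Hpgd, described above, belongs to the same group. H3c15, a histone gene, still had counts in treated libraries but fell from 363, 332 and 277 CPM to 7.73, 12.8 and 25.3 CPM (-4.41 ± 0.84, adjusted p = 0.00131). Galc, a lysosomal lipid hydrolase, fell from 63.4 ± 13.4 to 3.72 ± 1.31 CPM (-4.05 ± 0.94, adjusted p = 0.00707).

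Few markers of cell identity were called. Of 17 tested cDC2 markers 2 rose and 2 fell (11.8% each, median 0.56). Among all tested genes 5.42% rose and 2.2% fell, and each marker list rests on few called genes. Zbtb46, a transcription factor of conventional dendritic cells, was at 11.8, 12.4 and 7.48 CPM untreated and at 46.5, 57.7 and 67.9 CPM treated (2.34 ± 0.46, adjusted p = 0.00161). Flt3, the receptor for the growth factor used in the culture, was at 14.5, 15.5 and 7.48 CPM and then at 29.3, 50.1 and 39.9 CPM (1.53 ± 0.40, adjusted p = 0.0149), a call that ended without any of the untreated libraries or replicate 5 with LPS and PGPC. Csf1r, the receptor for M-CSF, was at 1804, 1914 and 1310 CPM and then at 906, 320 and 234 CPM (-1.78 ± 0.50, adjusted p = 0.0255), a call that ended without untreated replicate 4 or 5 or without replicate 5 or 6 with LPS and PGPC. Of 18 monocyte or macrophage markers 1 rose (5.56%) and 2 fell (11.1%), with a median of -0.58. Csf1r is on this list and on the cDC2 list, so its fall is counted in both. Lyz2, lysozyme, was at 3640 ± 362 and 1630 ± 270 CPM (adjusted p = 0.122), and Apoe at 2968 ± 569 and 2541 ± 2036 CPM (adjusted p = 0.886). Of the other marker lists, cDC1 gave 2 higher of 17 tested (11.8%) and plasmacytoid dendritic cells 3 of 13 (23.1%). Neutrophils gave 1 of 10 (10%) and mast cells or basophils 1 of 8 (12.5%), and 0 were lower in each of these lists. The cDC1 calls were Ifi205, also on the interferon-stimulated list, and Batf3, also on the AP-1 list. Those of plasmacytoid cells included Bst2, also on the interferon-stimulated list. These rises are thus counted in both and do not show a change of cell identity. None of the 7 B cell, 2 T or NK cell and 3 erythroid genes tested was called.

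Cells given LPS with PGPC were next set against cells given LPS alone, to see what the lipid added. The comparison shares its treated libraries with the one above, so the values are given side by side. It called 48 genes, 35 higher with the lipid (0.281% of tested genes) and 13 lower (0.104%), 0.385% in all. Over all tested genes the libraries with both agents lay wholly above those with LPS for 8.5% and wholly below for 5.39%. No NF-kB, cytokine, chemokine or interferon gene of the lists was called (0 higher and 0 lower in each). The list medians were -0.75 for NF-kB, -0.93 for cytokines and -0.16 for chemokines. They were 0.09 for interferon-stimulated genes and 0.13 for GTPases, beside 0.01 over all genes. The absence of calls thus does not show that these lists were unchanged. Il1b was at 466 ± 201 CPM with LPS and 254 ± 53.1 CPM with both (-0.87 ± 0.64, adjusted p = 0.858). Against untreated cells, LPS alone raised 725 genes (5.82%) and lowered 337 (2.7%), 8.52% in all. PGPC alone, with 2 libraries, raised 1 gene (0.00802%), Fam43a, and lowered 1 (0.00802%), Rab11b-ps2, 0.016% in all and both named after their values were seen. These 2 libraries held 2437917 and 969951 counts, with 52% and 60.9% of them in the ribosomal RNA locus. The low number of calls therefore does not show that PGPC alone changed little. Fam43a was at 5.19 ± 2.57 CPM untreated and at 38.9 and 143 CPM with PGPC, and Rab11b-ps2 at 36.3 ± 2.35 CPM untreated and without a count with PGPC.

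Some of the genes that were higher with LPS and PGPC than with LPS were also above untreated cells. Tsc22d3, a glucocorticoid-induced leucine zipper gene, was at 22.4 ± 5.67 CPM untreated, at 49.3 and 72.3 CPM with PGPC, at 17.4, 14.5 and 5.87 CPM with LPS and at 219, 187 and 147 CPM with both (3.83 ± 0.41 against LPS, adjusted p = 1.35e-05). Klf2, a transcription factor that restrains myeloid activation, had 1 count in the LPS libraries and was at 25.1, 22.9 and 18.7 CPM with both, a ratio of 109 (counting interval 19.5 to 4340). Rhob, a small GTPase, was at 84.4 ± 12.9 CPM untreated, 41.6 ± 17.0 CPM with LPS and 453 ± 52.8 CPM with both (3.44 ± 0.53, adjusted p = 0.00159). Trib3 was at 5.72 ± 3.31 CPM with LPS and 46.1 ± 17.8 CPM with both (2.94 ± 0.62, adjusted p = 0.0264). In these 4 genes all libraries with both agents stood above all others of cDC2. The rule that named them required this against the LPS libraries, but not against the others.

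Nrp1, Lpl, Plin2 and Clec7a were lower with LPS alone than in untreated cells or with both agents. Their levels with both agents lay below, near or above those of untreated cells. Nrp1, a co-receptor for semaphorins and growth factors, was at 109 ± 6 CPM untreated, 4.61, 5.39 and 1.96 CPM with LPS and 74.3, 54.4 and 32.8 CPM with both (3.68 ± 0.45, adjusted p = 9.92e-05). Its level with both did not differ from untreated beyond the threshold (adjusted p = 0.104). Lpl, lipoprotein lipase, was at 776 ± 92.6 CPM untreated, 1681 and 1705 CPM with PGPC, 78.8 ± 20.1 CPM with LPS and 412 ± 85.7 CPM with both (2.38 ± 0.43, adjusted p = 0.00689). Plin2, which coats lipid droplets, was at 560.5 ± 156 CPM untreated, 159 ± 43.9 CPM with LPS and 958 ± 30.2 CPM with both (2.60 ± 0.36, adjusted p = 0.000698), and Clec7a, the beta-glucan receptor, at 52.8 ± 6.83, 8.49 ± 1.98 and 42.2 ± 7.44 CPM (2.33 ± 0.42, adjusted p = 0.00689). Lpl, Plin2 and Clec7a were named after their values were seen. The cholesterol synthesis list gave 2 of the 28 tested genes higher (Fdps and Msmo1) and a median of 1.52, beside 0.01 over all genes. Fdps was at 18.7 ± 7.07 CPM with LPS and 72.4 ± 29.2 CPM with both (1.95 ± 0.40, adjusted p = 0.0219).

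Genes lower with LPS and PGPC than with LPS included the inflammasome sensor. Nlrp3 was at 438, 237 and 282 CPM with LPS and at 56.5, 25.4 and 35.3 CPM with both (-3.02 ± 0.55, adjusted p = 0.00689), the latter overlapping the untreated libraries. Sod2, a mitochondrial superoxide dismutase, was at 116 ± 25.9 CPM untreated, 842, 1406 and 1306 CPM with LPS and 199.5, 272 and 344 CPM with both (-2.12 ± 0.33, adjusted p = 0.00213). The immunoglobulin family gene Igsf6 was at 39.7 ± 9.02 CPM untreated, 288 ± 108 CPM with LPS and 49.8 ± 18.5 CPM with both (-2.53 ± 0.44, adjusted p = 0.0048), and Itgal, a chain of LFA-1, at 77.5 ± 26.5, 357 ± 115 and 75.7 ± 25.7 CPM (-2.24 ± 0.42, adjusted p = 0.01). The libraries with both agents lay below all LPS libraries in each, which the rule that named these genes required.

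The 48 calls depend on the libraries and the fit. Left out in turn, LPS replicates 4, 5 and 6 gave 83, 27 and 19 calls, and replicates 4 and 5 with both agents gave 26 and 19. A fit of the 6 libraries alone called 13 genes, DESeq2 190 and a table without the filter on low counts 156. The call for Nlrp3 ended without replicate 5 with both agents, and those for Trib3 and Lpl ended without LPS replicate 6. Trib3 also lost its call without LPS replicate 5 and without replicate 4 or 5 with both agents, Clec7a without LPS replicate 5, Igsf6 without replicate 5 with both agents, and Itgal without any of those 4 libraries. In the fit of the 6 libraries alone the calls for Trib3, Lpl, Plin2, Clec7a, Sod2, Igsf6 and Itgal ended.

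**Figure D4:**
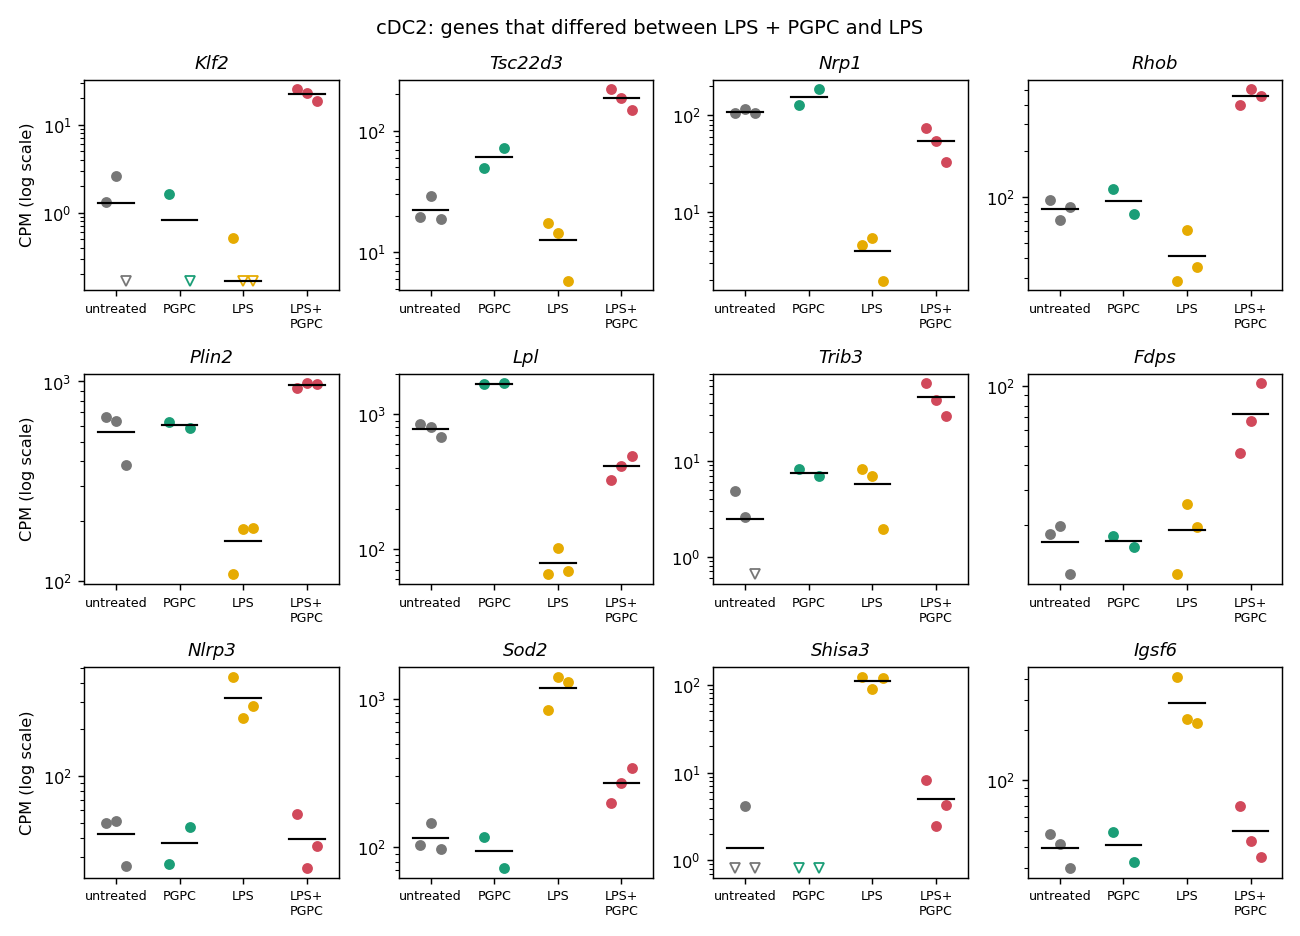
Level of 12 genes in each cDC2 library as CPM on a log scale: untreated (grey, 3 libraries), PGPC (green, 2), LPS (yellow, 3) and LPS with PGPC (red, 3); open triangles are libraries without a count and lines group means. In Nlrp3, Sod2, Shisa3 and Igsf6 the LPS libraries stand above all others, and in Klf2, Tsc22d3, Rhob and Trib3 those with both agents do. The rule that named these genes required no overlap between LPS and both agents.

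The same treatment was given to cDC1, the other cell type of the series, and the difference between the 2 responses was tested as an interaction. In cDC1 820 genes rose (6.58%) and 660 fell (5.3%), 11.9% in all. The response differed between the cell types for 38 genes, 28 with a higher log2 fold change in cDC2 (0.225%) and 10 with a lower one (0.0802%), 0.305% in all. Lag3, an inhibitory ligand of MHC class II, was at 0.268, 1.29 and 0 CPM in untreated cDC2 and at 20.4, 15.9 and 10 CPM with LPS and PGPC, whereas cDC1 went from 22.2, 13.9 and 27.7 to 4.62, 4.66 and 5.43 CPM (difference 6.45 ± 1.12, adjusted p = 0.00753). Flt3 also moved in opposite directions, from 12.5 ± 4.36 to 39.8 ± 10.4 CPM in cDC2 and from 351 ± 107 to 120.1 ± 26.9 CPM in cDC1 (3.08 ± 0.54, adjusted p = 0.00788).

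Other differences came from cDC1. Ctsl, a lysosomal cysteine protease, was at 317 ± 65.5 and 299 ± 34.8 CPM in cDC2 but fell in cDC1 from 299.99 ± 198 to 24.5 ± 2.25 CPM (3.53 ± 0.60, adjusted p = 0.00753). The complement gene C1qb likewise was at 308 ± 15.7 and 247 ± 13.1 CPM in cDC2 and at 118 ± 63.0 and 10.4 ± 7.48 CPM in cDC1 (3.20 ± 0.65, adjusted p = 0.028). Tnfrsf11a, the receptor RANK, was at 436 ± 53.0 and 385 ± 47.0 CPM in cDC2 and rose in cDC1 from 16.7 ± 2.94 to 185 ± 104 CPM (-3.66 ± 0.63, adjusted p = 0.00753). Cd83, a maturation marker, rose in both, from 50.2 ± 11.3 to 155 ± 41.0 CPM in cDC2 and from 37.0 ± 6.40 to 762 ± 320 CPM in cDC1 (-2.73 ± 0.55, adjusted p = 0.0273). Untreated cDC1 replicate 1 stood apart, with 71.9% of its counts in the ribosomal RNA locus against 40.7% and 47% in the other 2; without it 50 genes were called. Without untreated cDC2 replicates 4, 5 and 6 the count was 5, 16 and 19. It was 18 without cDC2 replicate 5 with both agents, 62 and 22 without cDC1 replicates 1 and 3 with both agents and 24 without untreated cDC1 replicate 2. DESeq2 called 224, a fit of all 36 libraries 3, a fit of the 4 groups alone 89 and a table without the filter on low counts 221. Without untreated cDC2 replicate 4, the calls for Lag3, Flt3, C1qb and Cd83 ended, and those for C1qb and Cd83 ended without several other single libraries too, while those for Ctsl and Tnfrsf11a held without any single library.

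**Figure D5:**
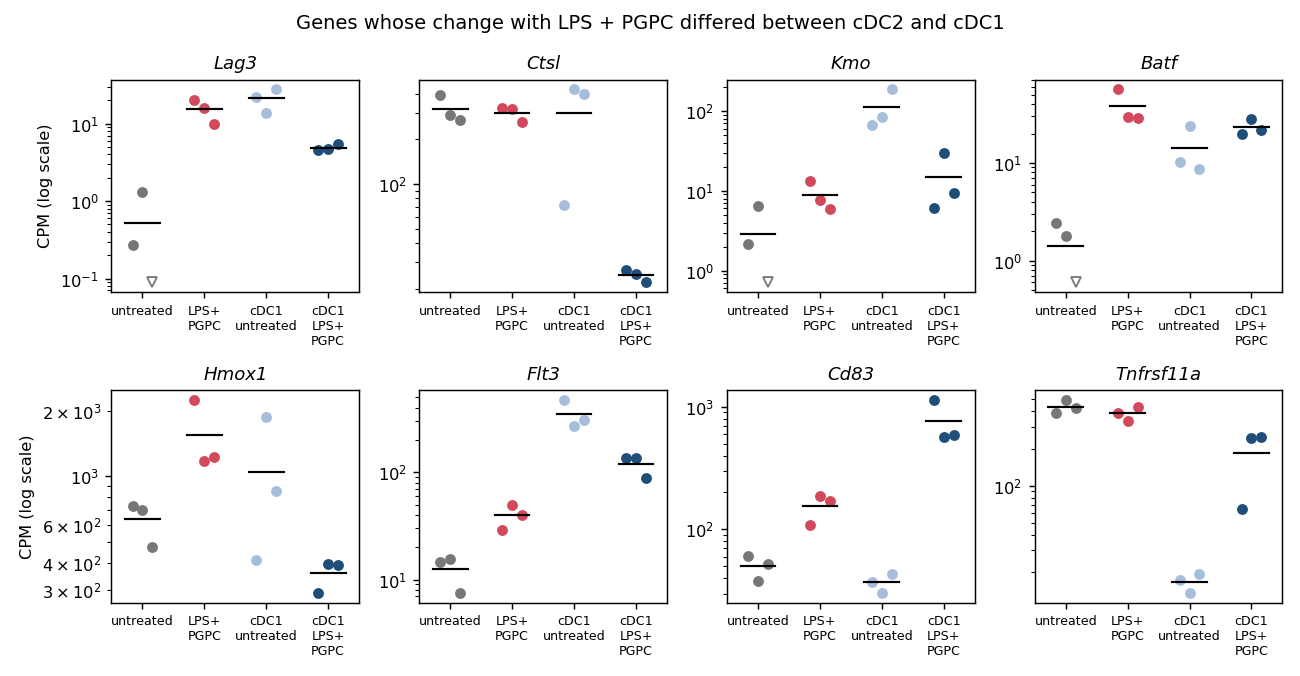
Level of 8 genes in each library of cDC2 (untreated grey, LPS with PGPC red) and cDC1 (untreated light blue, LPS with PGPC dark blue), as CPM on a log scale, 3 libraries each; open triangles are libraries without a count and lines group means. Lag3 and Flt3 rise in cDC2 and fall in cDC1, and Cd83 rises in both.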

How the data were processed

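RNA was read by Smart-Seq2, which keeps no strand, with Nextera XT libraries and paired-end reads, per the labels' protocols. The authors deposited expected counts per gene symbol made with RSEM on GRCm38, after bcl2fastq 2.2, per the submitters' processing notes; for the RSEM version, aligner and annotation, nothing was given in the sources used here. In all 53299 genes were listed for 36 libraries, and 21% of nonzero values were not whole and were rounded. Libraries with alum, and replicate 6 of cDC2 with PGPC, were left out of the fit. The other 23 libraries were scaled by TMM and fitted with 8 group means by edgeR 4.0.16 in R 4.3.3 (quasi-likelihood F test, robust), after a filter on low counts (filterByExpr, minimum count 10, minimum total 15) that left 12463 genes; the biological coefficient of variation was 0.545. Standard errors were derived from the fold change and F. Positions are from GENCODE M21, which held 12360 of the tested symbols, and promoters from RefSeq.

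On simulated data from these libraries with 12001 genes, the test recovered 4% of 50 genes changed 2-fold, 28% at 4-fold, 74% at 8-fold and 76% at 16-fold, and 4 of its 95 calls were unchanged genes. Alternatives were median-ratio scaling, other filters, all 36 libraries, the compared groups alone, a replicate block, the ribosomal RNA locus left out, DESeq2 1.42.0 and each replicate left out. Genes were named by rule. It took, per comparison, up to 15 called genes each way with the largest fold changes, provided that the group with more reached 5 CPM on average and that no libraries of the 2 groups overlapped (not asked of the cell type difference), without predicted models. It added from each list the 5 members with the smallest adjusted p and the 2 most abundant, a panel of cytokine, maturation and inflammasome genes, and all calls where 10 or fewer were made. Calr, Canx, Pdia3, H2-Q6, Ifnb1, Nfkb1, Nfkb2, Tnfaip3 and the label markers Cd209a, Mgl2, Clec10a, Clec9a and Xcr1 fall outside it and, like the genes so marked in the text, were added after values were seen. The gene lists were chosen with earlier results of these data known. Results of some genes are not reported here.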

Additional observations from a re-analysis of the deposited data

Results flagged for a closer look

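The response to LPS and PGPC differed between cDC2 and cDC1 for 38 genes by the interaction test (edgeR, adjusted over 12463 genes). As the log2 fold change in cDC2 minus that in cDC1, the difference was 6.45 for Lag3, 4.12 for Kmo, 3.60 for Batf, 3.53 for Ctsl, 3.20 for C1qb, 3.08 for Flt3 and 2.83 for Hmox1. It was -3.66 for Tnfrsf11a, -3.58 for Mylip, -2.73 for Cd83 and -2.68 for Nrp2. Hmox1 lost its call without any of 9 of the 12 libraries, and Batf without any of 7. The part of the ribosomal RNA share, which was higher in untreated cDC1 than in untreated cDC2, was not tested.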

How the results depend on the processing

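Of 950 genes called against untreated cells, the fit of all 36 libraries called 155 and that of the compared groups alone 1631; the other settings gave 945 to 1327, and leaving out a library gave 544 to 797. For the 48 called against LPS, no filter on low counts gave 156, all 36 libraries 2, the compared groups alone 13 and DESeq2 190, and leaving out a library gave 19 to 83. For the 38 that differed between cell types these were 221, 3, 89 and 224, and leaving out a library gave 5 to 62. The cause of these changes was not tested. The share of genes higher among those called against LPS was 72.9%, but 61.5% with median-ratio scaling or no filter, 57.9% with DESeq2 and 46.2% for the compared groups alone. Between cell types it was 73.7%, but 61.5% with no filter, 58.5% with DESeq2 and 57.3% for the compared groups alone. Against untreated cells it was 81.3% without replicate 5 with both agents. In the fit of all 36 libraries the lists of the report had few calls: 3 of 38 interferon-stimulated genes, 6 of 14 GTPases, 3 of 23 MHC class I genes, 2 of 17 chemokines, 4 of 16 cytokines and 0 of the NF-kB, MHC class II and cholesterol synthesis genes, with medians of 3.72, 4.45, 2.52, 3.93, 2.86, 1.86, 1.35 and 1.41 in that order. Among named genes against untreated cells, none of the 190 called changed sign under these settings, and 24 of the 118 not called did. The called genes kept their call in 2264 of 2647 values, and 35 of them kept it in every setting run. Replicate numbers were not taken to pair the libraries: correlations of deviations of libraries with the same number were 0.0054, -0.0394 and 0.0397 between LPS with PGPC and untreated cDC2, 0.045, -0.0283 and 0.134 in cDC1, and 0.52, 0.0909 and 0.204 between LPS with PGPC and LPS, where 1 was under the 0.1 asked for. The replicate block called 953, 47 and 46 genes, 862 of the first shared with the 950. The shallowest untreated library limits what can be said of genes under 11.2 CPM there.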
